A study of Mus musculus with 778 samples.

Results

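The genes described here are 10 oocyte genes whose products store maternal mRNA and hold back or release its translation: *Zar1*, *Zar1l*, *Ybx2*, *Cpeb1*, *Eif4e1b*, *Eif4enif1*, *Ddx6*, *Lsm14b*, *Patl2* and *Dazl*. They were taken by symbol from the 23201 genes of the count table, and all 10 were present. The rule used no measured value, but the list was drawn up with earlier results of these data known. Each of the 10 stood above 10 CPM (UMIs per 1000000 UMIs of the stage) throughout, so none was lost to a filter on low values.

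A growing mouse oocyte makes far more mRNA than it translates. Much of this mRNA is kept with a short poly(A) tail in cytoplasmic particles built from RNA-binding proteins, and it is translated only when meiosis resumes, after transcription has stopped. Proteins that bind the 3′ part of a stored mRNA, the cap, or the body of the transcript take part in this storage, and female mice that lack any of several of them are sterile.

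Single oocytes were picked by hand from wild-type female mice of the outbred ICR strain, and their polyadenylated RNA was sequenced with unique molecular identifiers (UMIs), random tags by which each original cDNA molecule is counted once. Stages were set by diameter. Non-growing oocytes (NGO) measured under 20 μm, GO1 30 to 45 μm, GO2 50 to 55 μm, GO3 60 to 65 μm and fully-grown oocytes (FGO) over 70 μm. NGO came from mice 3 to 4 days old and all later stages from mice 3 to 4 weeks old, so stage and mouse age cannot be told apart in any comparison with NGO.

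The table held 223 cells (46 NGO, 51 GO1, 26 GO2, 44 GO3 and 56 FGO) of 296 named in the series' design text. A cell's column gave its stage and not which of the 4 RNA libraries it came from, so each stage was 1 pooled sample without replicates and no p-value was computed. UMIs per stage ranged from 24976634 to 64311908, and the 10 deepest cells held 80.4% of them in GO1 and 73.2% in GO2. Levels were the summed UMIs of a stage, as CPM, which is a share of the captured mRNA and not an amount per oocyte. To pass the size rule, and be called higher or lower, a gene needed a 2-fold difference in summed CPM and 10 CPM in the higher of the stages compared. Where 5 values follow each other, they stand in stage order, from NGO through the growing stages to FGO. Intervals are exact, at 95%, and cover counting error only. All 12 oocyte marker genes exceeded 10 CPM in every stage, where they summed to between 26239 and 35209 CPM, while 11 granulosa markers summed to between 15.99 and 44.6 CPM, 8 stromal markers to between 2.09 and 13.6 CPM and 7 blood markers to between 1.57 and 4.60 CPM. The stromal sum was highest in NGO and the granulosa sum in GO1, and their part in the values below was not tested.

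From NGO to GO1, *Zar1l* was 3.20-fold higher in GO1, *Ddx6* was 3.52-fold lower, and the other 8 did not reach 2-fold in the summed counts. The 1 gene counted as higher stood against 20.6% of the 8527 genes tested, and the 1 counted as lower against 25.7%. The median log2 difference was -0.08 over the 10 genes and -0.15 over all genes tested. The median of the 10 joins rises and falls, from 1.68 for *Zar1l* to -1.81 for *Ddx6*. It therefore does not show that the single genes stood close to the rest of the transcriptome. Later steps moved few of them. *Lsm14b* alone was lower in GO2 than in GO1 (3.14% of 7356 genes passed in either direction), *Ddx6* alone was higher in GO3 than in GO2 (4.35% of 7334 genes), and none of the 10 passed between GO3 and FGO (5.96% of 7622 genes). Over the whole of growth, from NGO to FGO, none of the 10 differed 2-fold either, where 27.3% of 8132 genes did.

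**Figure D1:**
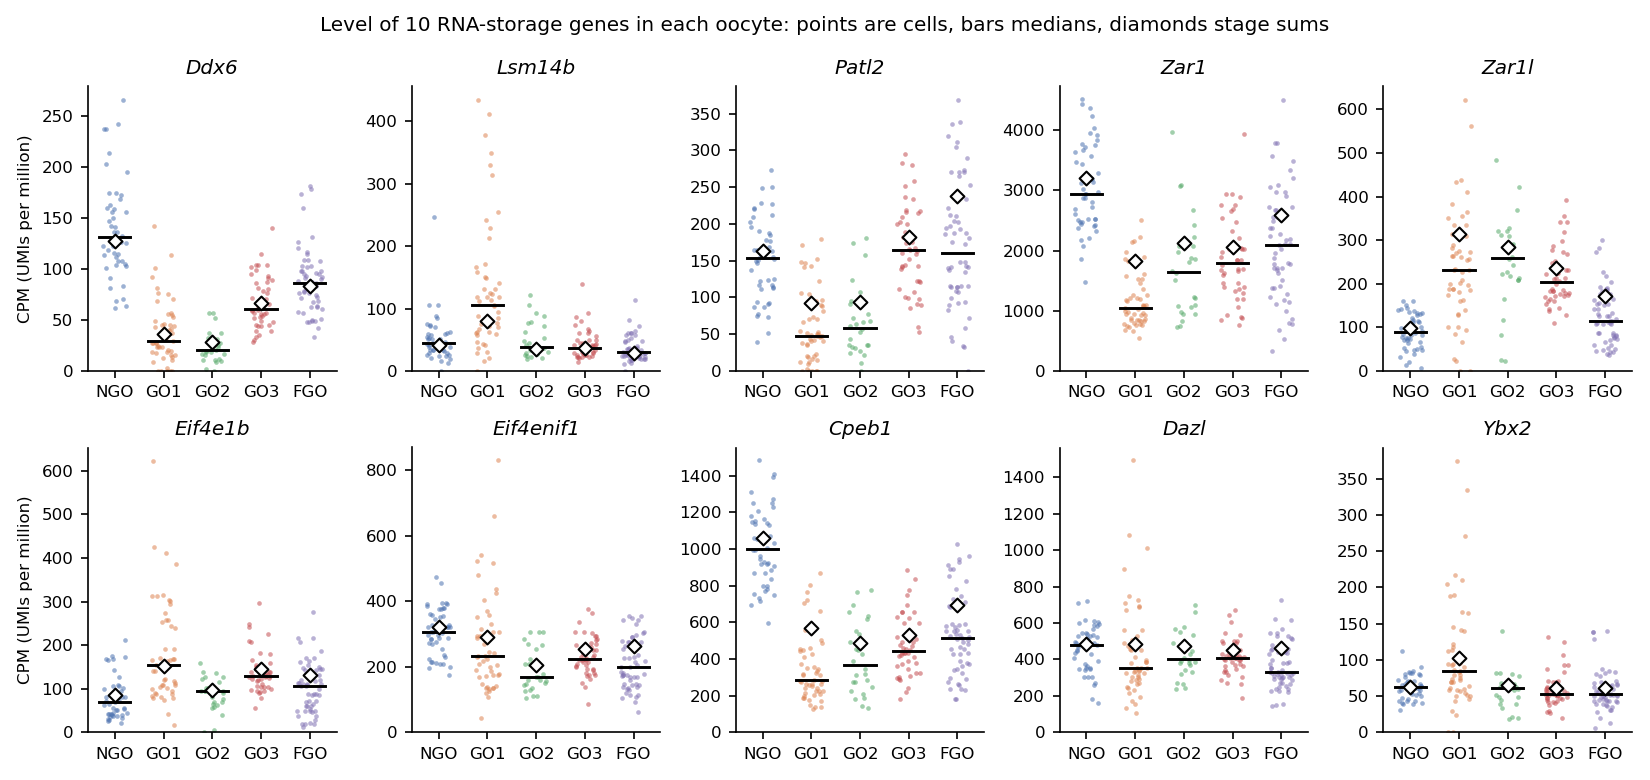
CPM of the 10 genes (vertical axis, linear, its own scale in each panel) in every oocyte (points) of the 5 stages (horizontal axis), with the median over cells (black bar) and the summed CPM of the stage (diamond). In GO1 the diamond lies well above the bar for *Zar1* (1819 against 1050 CPM) and *Cpeb1* (569 against 283 CPM), since the sum follows the deepest cells.

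The number of genes that passed between NGO and GO1 depended on the weight given to deep cells. With each cell counted alike, as the mean of the CPM of single cells, 7 of the 10 passed: *Zar1l*, *Eif4e1b* and *Lsm14b* were higher and *Cpeb1*, *Zar1*, *Ddx6* and *Patl2* lower. Under that setting 22.1% of 8539 genes were higher and 34.6% lower. The 10 deepest GO1 cells and the other GO1 cells differed most for *Cpeb1* (641 against 271 CPM), *Patl2* (104.1 against 46.04 CPM) and *Zar1* (2025 against 969 CPM). Whether these cells came from 1 library or from larger oocytes within the stage was not tested.

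*Zar1* and *Zar1l* encode related zinc-finger proteins that bind maternal mRNA, and ZAR1 gathers it into the storage compartment around the mitochondria of the oocyte. *Zar1* (NCBIM37 chr5:72968353-72972323, minus strand) stood at 3201, 1819, 2132, 2063 and 2583 CPM over the 5 stages. *Zar1l* (chr5:151309630-151320739, minus strand) stood at 98.1, 314, 285, 236 and 173 CPM. NGO therefore held the highest summed level of *Zar1* and the lowest of *Zar1l*. An annotated pseudogene on the same strand overlaps *Zar1l* by 1645 bases, and it has no row of its own in the table.

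Single oocytes showed the same opposite order. For *Zar1*, CPM per cell ran from 1483 to 4525 (median 2934) in NGO and from 549 to 2505 (median 1050) in GO1. The cell ranges overlapped, yet 39 of 51 GO1 cells lay below the lowest NGO cell and none above the NGO median. For *Zar1l*, cells ran from 7.65 to 161 CPM (median 88.7) in NGO, from 0 to 622 (median 231) in GO1 and from 36.97 to 301 (median 115.01) in FGO. Again the ranges overlapped, with 39 of 51 GO1 cells above the highest NGO cell and 2 below the lowest. The summed *Zar1* level was 1.76-fold lower in GO1 (1.74 to 1.78), short of 2-fold, and that of *Zar1l* 3.20-fold higher (3.06 to 3.35).

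Because both genes were counted in the same cells, their ratio does not depend on how a stage is scaled. Per 100 UMIs of *Zar1* there were 3.06 of *Zar1l* in NGO (2.94 to 3.19), 17.3 in GO1 (16.9 to 17.7), then 13.4 and 11.4, and 6.69 in FGO (6.56 to 6.82). No NGO cell exceeded 5.59, whereas 46 of 51 GO1 cells, 24 of 26 GO2 cells, 44 of 44 GO3 cells and 35 of 56 FGO cells did. The ratio was thus highest in GO1 and lower at each later stage, and FGO remained above NGO in the sums. Depth did enter: the 10 deepest GO1 cells gave 16.6 and the other GO1 cells 22.9, the 10 deepest FGO cells 7.34 and the others 5.85, while NGO gave 2.97 and 3.15. The ratio is read here between stages and not as a ranking of the genes, since transcript length and capture may differ between them.

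The promoters of the pair are shown because the genes moved in opposite directions between NGO and GO1. Both come from RefSeq (build GRCm38.p6), which held a promoter for 8 of the 10 genes, and are printed 5′ to 3′ on the strand of the gene over 300 bases that span the transcript start. Capitals mark motifs of oocyte transcription factors, searched on both strands. They are the E-box (CANNTG), bound by FIGLA and SOHLH1 among others, and the NOBOX element, searched as TAATTG and in the variant forms TAATTA and, as a further variant, TAGTTG.
*Zar1l* (chr5:150518110-150518409, minus strand): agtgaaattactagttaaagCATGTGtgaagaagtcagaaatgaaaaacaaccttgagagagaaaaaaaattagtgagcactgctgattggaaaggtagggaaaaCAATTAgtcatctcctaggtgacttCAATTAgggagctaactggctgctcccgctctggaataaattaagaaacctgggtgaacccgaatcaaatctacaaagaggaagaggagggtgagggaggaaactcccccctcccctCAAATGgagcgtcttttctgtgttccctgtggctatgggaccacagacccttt
*Zar1* (chr5:72581035-72581334, minus strand): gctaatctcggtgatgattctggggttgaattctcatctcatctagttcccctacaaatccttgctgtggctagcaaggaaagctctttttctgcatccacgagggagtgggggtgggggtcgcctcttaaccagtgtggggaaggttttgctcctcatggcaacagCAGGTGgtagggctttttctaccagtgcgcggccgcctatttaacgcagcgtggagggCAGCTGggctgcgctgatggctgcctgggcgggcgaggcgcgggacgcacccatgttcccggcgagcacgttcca
Each promoter held 2 E-boxes, and 72.3% of 32851 RefSeq promoters of this length held at least 1. *Zar1l* held 2 NOBOX elements (both as CAATTA on the printed strand) and *Zar1* none, and 17.9% of all promoters held at least 1. In none of the other 6 genes with a promoter was a NOBOX element found, and no E-box overlapped an element. A match of letters is no evidence of binding, and binding was not measured.

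*Ybx2* encodes MSY2, the Y-box protein that coats maternal mRNA in germ cells and stabilises it. Its summed level (NCBIM37 chr11:69749298-69755107, plus strand) was 62.4, 103.2, 65.4, 60.6 and 60.9 CPM. GO1 stood apart from 4 stages that lay within 5 CPM of each other, although the 1.65-fold difference from NGO (1.55 to 1.76) did not reach 2-fold. Cells ran from 31.2 to 112.1 CPM (median 62.5) in NGO and from 0 to 374 (median 84.1) in GO1, with 17 of 51 GO1 cells above the highest NGO cell and 4 below the lowest. The somatic and germline relative *Ybx3* rose between the same stages from 50.7 to 215 CPM. Per 100 UMIs of *Ybx3* there were 123.005 of *Ybx2* in NGO (114.2 to 132.5) and 47.9 in GO1 (45.8 to 50.2), and 74.6 in FGO. Against *Ybx1*, the ratio was steadier, at 32.95, 34.1, 22.4, 26.6 and 30.4.

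*Cpeb1* encodes the protein that reads the cytoplasmic polyadenylation element (CPE) near the end of stored mRNAs, and first represses and then activates them. Its summed level (chr7:88491912-88600351, minus strand) was 1062, 569, 488, 534 and 694 CPM. The difference between NGO and GO1 was 1.87-fold (1.83 to 1.91), just short of the size rule, and in single cells it was wider. NGO cells ran from 599 to 1486 CPM (median 1002) and GO1 cells from 128.7 to 871 (median 283), so that 45 of 51 GO1 cells lay below every NGO cell. FGO cells ran from 183 to 1026 CPM (median 516), with 41 of 56 still below the lowest NGO cell. NGO was thus the high stage of *Cpeb1* in the sums and in the cells, and the order of the later stages was less clear, since their cell ranges overlapped widely. The relative *Cpeb4* rose from 5.36 to 21.04 CPM between NGO and GO1, whereas *Cpeb3* was at 47.5 and 27.5 CPM, and *Cpeb2* stayed under 10 CPM in every stage.

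The element CPEB1 reads was searched on the sense strand, as TTTTAT and in the longer form TTTTAAT, in the last 100 bases of annotated transcripts that carry a polyadenylation signal (AATAAA, or its common variant ATTAAA) in their last 40 bases. An end of this kind was found for 8 of the 10 storage genes and none held the element, against 1306 of 6212 genes that reached 10 CPM in some stage (21.02%). Among 7 mRNAs known as stored or activated at maturation with such an end, *Plat*, the tissue plasminogen activator whose mRNA is a classical stored message, held it. Its 30 bases are shown for what the element looks like, with the element in capitals, 5′ to 3′.
*Plat* (NCBIM37 chr8:23893220-23893249, plus strand): tatttataTTTTAATctattttagttttta
The absence of these letters from a window of 100 bases draws nothing about regulation of a gene, since other ends and variant elements were not searched.

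*Eif4e1b* encodes the oocyte form of the cap-binding protein, found in stored mRNA particles, and *Eif4enif1* encodes 4E-T, its partner there and a component of P-bodies. *Eif4e1b* (chr13:54885359-54889820, plus strand) summed to 86.1, 152.2, 97.5, 144.8 and 131.5 CPM. The alternation between neighbouring stages was seen in the medians over cells as well, which were 70.5, 154.2, 94.5, 129.2 and 106.2 CPM. Cells ran from 21.8 to 212 CPM in NGO and from 15.9 to 622 in GO1, with 49 of 51 GO1 cells above the NGO median but only 16 above the highest NGO cell. Per 100 UMIs of *Eif4e*, the form that starts translation, there were 15.1 of *Eif4e1b* in NGO (14.4 to 15.8), 24.7 in GO1 (23.9 to 25.6), then 14.3, 23.7 and 23.5. *Eif4e* itself lay between 560 and 682 CPM in all stages. Of the other relatives, *Eif4e3* rose from 172 CPM in NGO to 685 in GO1 and *Eif4e2* fell from 140.2 to 65.6 CPM.

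*Eif4enif1* (chr11:3102395-3144591, plus strand) varied little, with 322, 290, 207, 254 and 263 CPM. Its cells ran from 176 to 475 CPM (median 306) in NGO, from 44.9 to 830 (median 234) in GO1 and from 62.99 to 356 (median 199) in FGO. No step reached 1.5-fold in the sums, and the cell ranges overlapped in every comparison. *Drg1* is annotated on the opposite strand over all 42197 bases of the gene and was at 134.02 CPM in NGO and 61.5 in GO1. Whether strand was used in counting is not given in the sources used here, so UMIs of the pair may not have been told apart.

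*Ddx6* encodes the RNA helicase at the core of P-bodies and of stored mRNA particles, *Lsm14b* a partner that binds it directly, and *Patl2* the oocyte relative of PAT1, a decapping factor that binds DDX6. The 3 genes took 3 different courses. *Ddx6* (chr9:44412975-44448814, plus strand) summed to 127.2, 36.1, 27.9, 66.98 and 82.9 CPM. It was 3.52-fold lower in GO1 than in NGO (3.27 to 3.78) and then rose 2.40-fold from GO2 to GO3 (2.21 to 2.61).

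NGO cells ran from 61.6 to 266 CPM of *Ddx6* (median 131.1), GO1 cells from 0 to 141.6 (median 29.7) and GO2 cells from 0 to 56.97 (median 20.1). The ranges of NGO and GO1 overlapped through few cells, as 42 of 51 GO1 cells lay below the lowest NGO cell, and GO2 lay wholly below NGO. GO3 cells ran from 28.3 to 140.2 CPM (median 60.9) and FGO cells from 33.6 to 181 (median 85.9). All 44 GO3 cells lay above the GO2 median and 27 above the highest GO2 cell, and all 56 FGO cells lay above the GO1 median. *Ddx6* was low in early growth and higher at both ends, and its calls between NGO and GO1 and between GO2 and GO3 were made under all 11 settings tried, including those that weigh each cell alike. Of the 11, 8 set the level in different ways, the sums among them. The others changed only the limits, and a looser limit could not undo a call.

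*Lsm14b* (chr2:179759692-179770170, plus strand) was highest in GO1, with 41.7, 80.6, 35.6, 37.1 and 29.4 CPM. The step from NGO to GO1 was 1.93-fold (1.79 to 2.08) and did not pass in the sums. It passed under 7 of 11 settings, among them the looser limit of 1.5-fold. The log2 difference was 1.05 with the factors of DESeq2 and 1.11 with TMM factors, beside 0.95 in the sums. The step from GO1 to GO2 was 2.26-fold lower (2.09 to 2.45) and passed, except with the median-of-ratios factors of DESeq2. Cells ran from 0 to 247 CPM (median 43.9) in NGO, from 0 to 435 (median 106.3) in GO1 and from 19.4 to 122.4 (median 38.7) in GO2. These ranges overlapped, and 1 of 26 GO2 cells lay above the GO1 median. By FGO the level was 2.74-fold lower than in GO1 (2.58 to 2.92). The relative *Lsm14a* rose from 39.1 CPM in NGO to 136.7 in GO1, and per 100 of its UMIs there were 106.7 of *Lsm14b* in NGO (97.7 to 116.5), then 58.9, 36.1, 40.3 and 37.9 in the sums. Medians of this ratio over cells with a UMI of *Lsm14a* were 100, 88.2, 40.6, 49.8 and 45.2. The quartiles were 80.3 and 172.1 in NGO and 47.1 and 150 in GO1. Between NGO and GO1 the fall was thus smaller in the cells than in the sums, which follow the deepest cells.

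*Patl2* (chr2:121945844-122011925, minus strand) was low in GO1 and GO2 and, in the sums, highest in FGO, with 163, 92.7, 93.6, 183 and 238 CPM. The 10 deepest FGO cells gave 292 CPM and the other FGO cells 184, and by the median over cells GO3 was highest. From GO1 to FGO *Patl2* rose 2.56-fold (2.46 to 2.68), and *Ddx6* rose 2.29-fold (2.14 to 2.46). These 2 genes were the ones counted as higher among the 10, where 7.98% of 7873 genes were, and *Lsm14b* the one counted as lower, where 9.03% were. Cells ran from 0 to 180 CPM of *Patl2* (median 47.8) in GO1, from 52.5 to 295 (median 164) in GO3 and from 0 to 369 (median 161) in FGO. The ranges overlapped, with 51 of 56 FGO cells above the GO1 median and 26 above the highest GO1 cell. The step from GO2 to GO3 was 1.95-fold (1.87 to 2.04), under the size rule in the sums, and 43 of 44 GO3 cells lay above the GO2 median. *Patl1* stayed under 10 CPM in every stage. *B2m* (107.9 CPM in NGO and 46.1 in FGO) and *Trim69* (under 2 CPM) lie on the opposite strand within the annotated *Patl2* gene, and counts of the 3 may not have been told apart.

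*Dazl* encodes a germ-cell protein that binds U-rich stretches and activates the translation of stored mRNAs during maturation. It was the steadiest of the 10 (chr17:50418719-50432924, minus strand), with 483, 483, 475, 453 and 462 CPM. The ratio of its highest to its lowest summed level was 1.07, against 1.56 to 4.56 for the other 9 genes. Medians over cells were less even, from 480 CPM in NGO to 331 in FGO, a ratio of 1.45, and cells ran from 158.7 to 718 CPM in NGO and from 146.2 to 725 in FGO. GO1 cells reached furthest, from 109.2 to 1494 CPM, with 6 of 51 above the highest NGO cell and 3 below the lowest, and the ranges of all stages overlapped. *Boll*, its relative in male germ cells, stayed under 2 CPM in every stage.

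**Figure D2:**
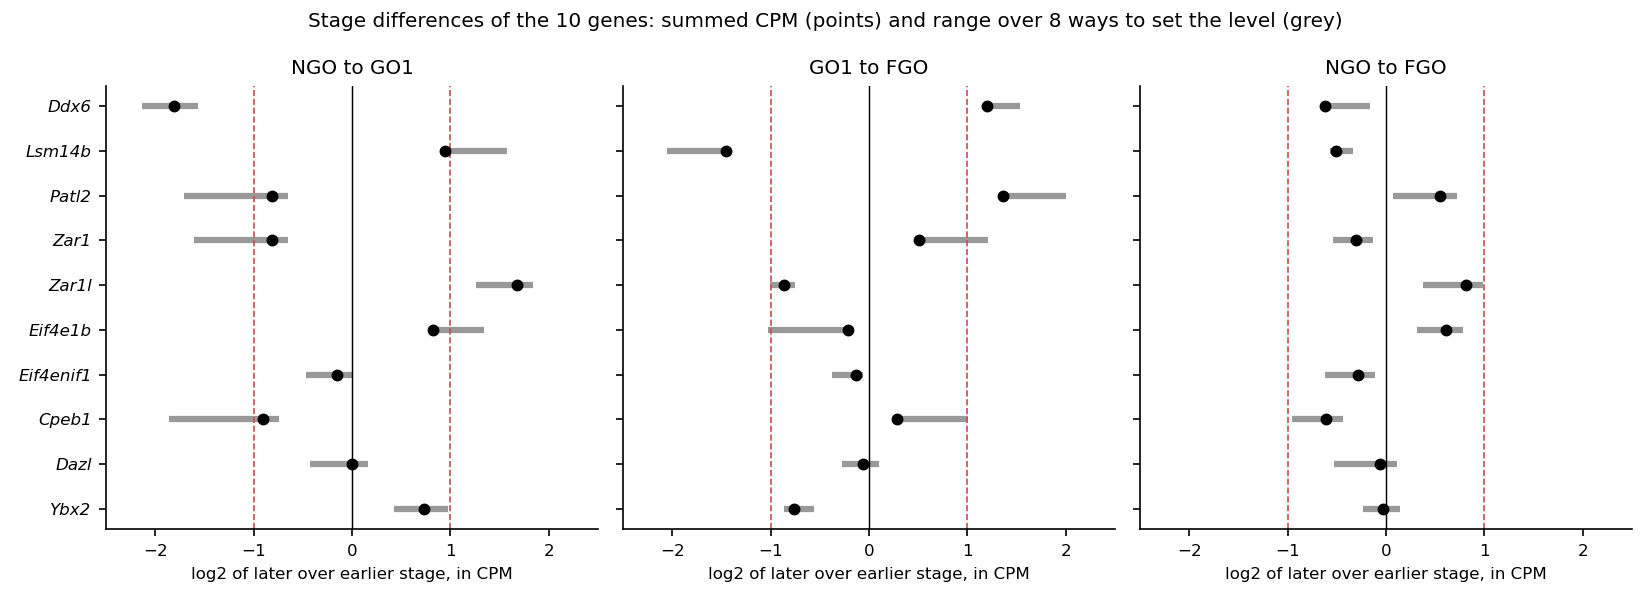
Log2 difference of each gene (rows) between 2 stages (panels), as the later over the earlier stage. Points are summed CPM, grey bars the range over 8 ways to set the level (totals, 2 other scalings, mean and median over cells, thinned cells, and sums without the deepest or shallowest cells), and dashed lines mark 2-fold. *Ddx6* and *Zar1l* lie beyond 2-fold over the whole range between NGO and GO1, and all 10 stay within 2-fold between NGO and FGO.

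**Figure D3:**
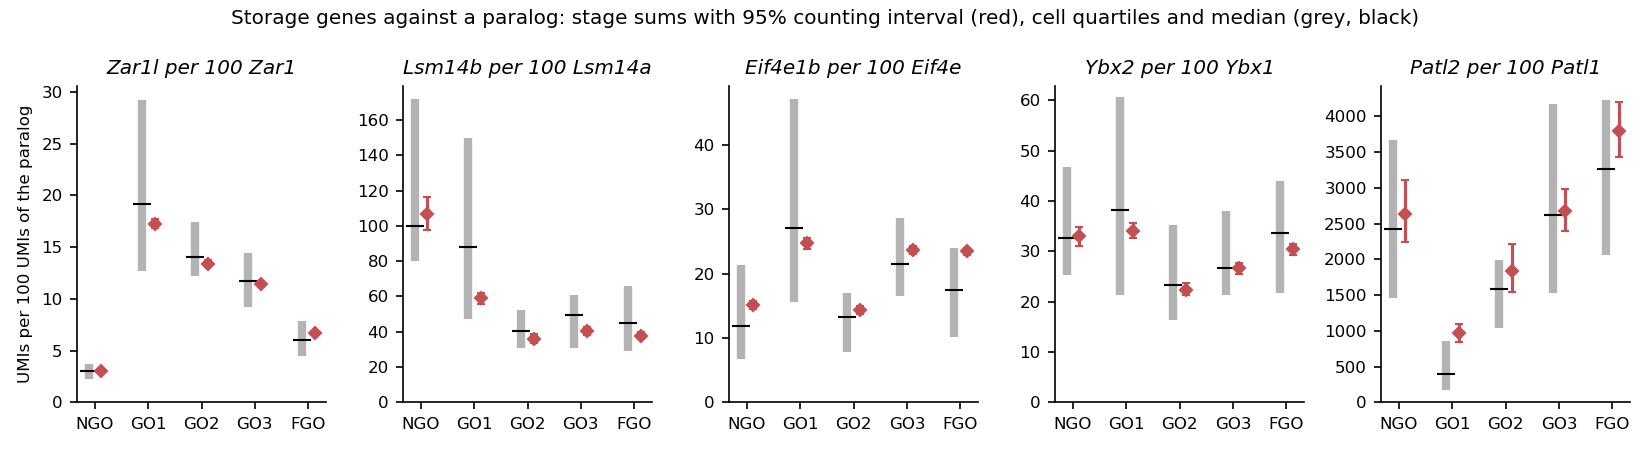
UMIs of 5 storage genes per 100 UMIs of a paralog (vertical axis, its own scale in each panel) in the 5 stages. Red diamonds are stage sums with exact 95% counting intervals, grey bars span the quartiles over cells and black bars are medians. *Zar1l* per 100 *Zar1* went from 3.06 in NGO to 17.3 in GO1 and 6.69 in FGO.

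The level of most of the genes in a cell went with the depth of that cell in FGO, and also in GO2 and GO3. Spearman's rho between CPM and UMIs per cell over 56 FGO cells was 0.78 for *Patl2*, 0.76 for *Zar1l*, 0.74 for *Dazl* and 0.71 for *Cpeb1*, and it was negative for *Lsm14b* (-0.34) and *Ddx6*. In GO2 the 10 values lay between -0.75 and 0.72 (median 0.42, 9 positive), and in GO3 between -0.48 and 0.57 (median 0.37, 8 positive). Over 46 NGO cells they lay between -0.49 and 0.36 (median 0.22), and in GO1 between -0.38 and 0.31 (median -0.03, 4 positive). These are descriptions, since depth may carry the library and the size of the oocyte, and CPM and depth share the same total. The spread between cells was smallest in NGO, where the coefficient of variation had a median of 31.3% over the 10 genes, and largest in GO1 (60.5%), where the median cell had 110146 UMIs against at least 540432 in the other stages. The part of depth in that spread was not tested.

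The genes whose course over the 5 stages was nearest to each storage gene were found as the smallest root mean square difference of log2(CPM + 1), each centred on its own mean, among 8671 genes. *Snx12* was nearest to *Cpeb1* (0.0079), *Psenen* to *Dazl* (0.017), *Plekha8* to *Ybx2* (0.023), *Ccdc155* to *Zar1* (0.027) and *Exo1* to *Eif4enif1* (0.029). *Bcas1* was nearest to *Zar1l* (0.039), *Dennd2a* to *Eif4e1b* (0.056), *Mdm1* to *Ddx6* (0.059), *Tspan3* to *Patl2* (0.062) and *Slc7a11* to *Lsm14b* (0.14). *Lsm14b* had the most distant nearest gene, and none of the 10 was among the 3 nearest of another. With 5 points a gene, such likeness is common and is given as a description.

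Several mRNAs that are known as stored or activated at maturation were higher in GO1 than in NGO. Of 8 on this list, 4 rose from NGO to GO1 and 1 fell, with a median log2 difference of 1.12, beside 20.6% higher, 25.7% lower and a median of -0.15 over all genes tested. *Ccnb1*, the cyclin of meiotic resumption, rose from 459 to 1374 CPM, *Btg4*, an adaptor for mRNA decay after maturation, from 600 to 1707 CPM, *Plat* from 470 to 1257 CPM and *Il7* from 13.6 to 60.4 CPM. *Tex19.1* fell from 167 to 72.7 CPM. *Mos*, the kinase that holds the egg in metaphase, was at 360 CPM in NGO, 634 in GO1 and 747 in FGO, which passed between NGO and FGO. *Tpx2* was at 156.4 and 242 CPM and *Hprt* at 93.3 and 95.02 CPM in NGO and GO1. Translation and poly(A) tail length were not measured, and a library made from polyadenylated RNA may capture an mRNA with a short tail less well.

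Other genes of the pathway passed in both directions between NGO and GO1, where 20.6% of all genes tested were higher and 25.7% lower. Of 8 paralogs of the storage genes tested, 4 rose (*Ybx3*, *Cpeb4*, *Eif4e3* and *Lsm14a*) and 1 fell (*Eif4e2*). The median log2 difference of these paralogs was 1.24, away from the -0.15 of all genes. Of 17 genes of cytoplasmic polyadenylation and poly(A) binding, 3 rose and 2 fell. *Pabpn1l*, which encodes a poly(A)-binding protein of the oocyte, rose from 113.1 to 1037 CPM. *Papolg*, a poly(A) polymerase, rose from 7.70 to 36.97 CPM and *Pabpn1* from 16.9 to 41.6 CPM, and *Pabpc4* fell from 635 to 157.7 CPM. Of 13 genes of P-bodies and decapping, 3 rose and 4 fell: *Dcp1a*, a subunit of the decapping enzyme, rose from 51.1 to 290 CPM, while *Edc3*, an enhancer of decapping that binds DDX6, fell from 15.4 to 1.76 CPM. *Lsm4* fell from 297 to 84.3 CPM and *Lsm1*, like it a subunit of the ring that binds deadenylated mRNA, from 449 to 146.5 CPM. For P-bodies both shares lay near those of all genes. For polyadenylation this held for the genes that rose. The 2 of 17 that fell were a smaller share than the 25.7% of all genes. The list medians were -0.18 for polyadenylation and -0.10 for P-bodies on the log2 scale, near the -0.15 of all genes.

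**Figure D4:**
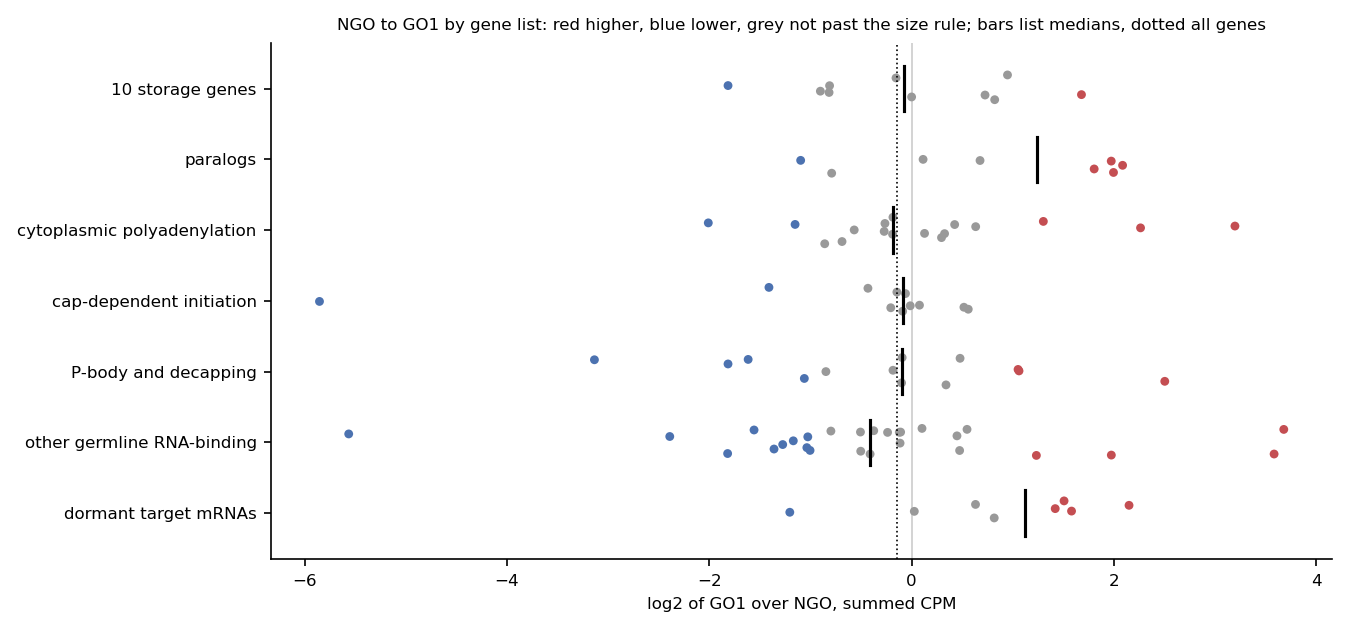
Log2 difference from NGO to GO1 in summed CPM (horizontal axis) of genes that reached 10 CPM in NGO or GO1, by gene list (rows). Red points are at least 2-fold higher, blue at least 2-fold lower and grey neither, black bars are list medians and the dotted line is the median of all 8527 genes tested (-0.15). The 10 storage genes have a median of -0.08 and the dormant target mRNAs one of 1.12.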

How the data were processed

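Single-oocyte RNA libraries were made from polyadenylated RNA, per the labels. Reads were split by cell barcode, trimmed and aligned with Tophat to the mm9 transcriptome by the authors, who collapsed duplicates by UMI and deposited raw counts of UMIs for each gene and cell. The columns carry no barcode or library, so cells were grouped by the stage in their names and the list of barcodes was not used. No doublet caller was run, as the oocytes were picked by hand. The iscCOOL-seq data were not analysed here.

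The 10 genes and all gene lists were chosen with earlier results of these data known. Named are the 10 genes, their paralogs and the stored target mRNAs, up to 4 genes of each other list with the largest difference from NGO to GO1 among genes that passed, and the nearest genes by course. Sums carry exact Poisson intervals and ratios of sums exact binomial ones. The size rule was tried on simulated stage sums with counting error only. These held no differences between cells or in their depth, so they do not show how the rule fares with such differences. Alternatives were scaling by DESeq2 1.42.0 (median of ratios) or edgeR 4.0.16 (TMM), neither of which was used for a test, means or medians over cells, cells thinned to 20000 UMIs, sums that left out the 10 deepest cells per stage or the cells under 50000 UMIs (13, all in GO1), and other limits. Gene positions are those of GENCODE vM1 on NCBIM37, which is mm9, and promoters those of RefSeq on GRCm38.p6, and coordinates were not moved between builds. The motifs were chosen after the levels were known. Scripts ran in Python 3.11.15 (with scipy 1.17.1, pandas 2.3.3, matplotlib 3.10.9 and numpy 2.4.6) and R 4.3.3.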

Additional observations from a re-analysis of the deposited data

How the results depend on the processing

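No paired analysis was possible because the columns carry no replicate or library numbers and each stage was 1 pooled sample. In each sentence the share of all tested genes that passed stands after the count of the 10 genes. Between NGO and GO1, 2 passed in the sums (46.3%), 3 with the factors of DESeq2 (46.3%) or TMM (46.1%), *Lsm14b* in addition, 7 under the mean over cells (56.6%), the median over cells (60.9%), thinned cells (57.6%) and sums that left out the 10 deepest cells per stage (59.2%), and 8 at a limit of 1.5-fold (66.3%). Between GO1 and GO2, 1 passed in the sums (3.14%), 0 with the factors of DESeq2 (1.29%), 2 under the mean over cells (16.5%) and thinned cells (23.9%), and 3 at 1.5-fold (14.7%). Between GO2 and GO3, 1 passed in the sums (4.35%) and 2 (*Ddx6* and *Patl2*) under the mean (6.35%), the median (7.15%), thinned cells (16%), sums without the deepest cells (7.54%) and 1.5-fold (13.5%). Between GO1 and FGO, 3 passed in the sums (17%), and 5 without the deepest cells (35.4%, *Cpeb1* and *Zar1* in addition) and at 1.5-fold (36.6%). Between NGO and FGO, 0 passed in the sums (27.3%) and 4 at 1.5-fold (51.2%), and between GO3 and FGO 0 under every alternative. The counts under the other alternatives were within 1.5 times of those in the sums. Scaling moved the median log2 of all genes from NGO to GO1 from -0.15 (totals) to -0.04 (DESeq2), 0.01 (TMM) and -0.37 (mean over cells), and the share of higher among all called genes from 44.5% to 50.1%, 53.2% and 38.9%. No called difference of the 10 genes changed sign under any alternative. Of all 600 differences of the 10 genes under alternatives, called or not, 64 had the opposite sign to that in the sums. Alternatives that changed only the limits could not change a sign. Sums rested on few cells in GO1 and in GO2, where the 10 deepest cells held 80.4% and 73.2% of the UMIs, and cells under 50000 UMIs were found in GO1 only.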

Other observations

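Of 11 genes of cap-dependent initiation tested from NGO to GO1, none rose and 2 fell, where 20.6% of all genes tested were higher and 25.7% lower. *Eif4ebp1*, the repressor that keeps EIF4E from its scaffold, fell from 249 to 4.30 CPM and stood at 34.6 CPM in FGO, and *Eif4a1*, the helicase subunit, fell from 1201 to 452 CPM. Of 27 other germline RNA-binding genes, 4 rose and 10 fell, with a median log2 difference of -0.41 beside -0.15 for all genes. *Rbm46* fell from 45.996 to 0.97 CPM and *Ddx4*, the germline helicase, from 342 to 65.2 CPM, reaching 198 CPM in FGO. *Hnrnpa1* rose from 11.2 to 143.9 CPM and *Msi2* from 1.03 to 12.4 CPM.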
